A study of Caenorhabditis elegans with 24 samples.

Results

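The transcriptional response of adult *Caenorhabditis elegans* to dietary restriction (DR) was measured in total mRNA, the polyA RNA of a whole-worm lysate before any separation of polysomes. The members are the 8 libraries, of 24 in the series, that the labels give as total RNA of the wild-type strain N2, 4 from worms fed ad libitum (AL) and 4 from worms under DR. Worms were raised at 20 °C on *E. coli* OP50 and carried no transgene or mutation. From day 1 of adulthood they received OP50 at log10 CFU of 11 (AL) or 9 (DR) according to the labels (the study's methods print 11 for both), and they were lysed on day 4 of adulthood (after 4 days on the diet in the study's methods). Both groups were kept with carbenicillin, which stops bacterial growth, and with FUdR, an inhibitor of DNA synthesis that blocks the development of progeny, so all values are those of FUdR-treated adults. The study calls the 4 libraries of a group biological replicates, but no label says that they came from separate cultures. The p-values therefore measure the spread between libraries of a group, which may be technical. The remaining 16 libraries hold polysome-bound (translated) mRNA of the same diets and a *daf-2;rsks-1* double mutant. Of the 45461 genes in the table, 8224 coding genes with a mean of at least 8 CPM (reads scaled to a common library total and divided by a composition factor) over the 16 N2 libraries were tested.

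In *C. elegans*, food shortage lowers signalling through insulin and TOR, raises AMPK activity and moves the animal from growth and egg production toward use of stored fat. Fat is released in lysosomes and lipid droplets and burnt by beta-oxidation, while the glyoxylate shunt lets the worm make sugar from fat. The intestine is at once the gut, the liver-like organ, the source of yolk and the first line of defence against bacteria, so that digestion, yolk production, detoxification and immunity are largely programmes of 1 tissue.

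Total mRNA gave 10250079 to 12394990 reads on genes per AL library and 12084154 to 13741232 per DR library. Reads on rRNA genes, which polyA selection should remove, made up 3.02, 1.27, 5.83 and 1.59% of the reads in AL replicates 1 to 4 and 0.611, 0.517, 0.894 and 0.539% in DR replicates 1 to 4. Every AL library held more of them, with a difference of -2.285 percentage points (exact two-sided permutation test, p = 0.0286, the smallest p that 4 against 4 libraries allow) and of -1.318 without AL replicate 3. The part of this difference in the results below was not tested. Any pair of libraries of 1 diet differed by more than sampling noise, so all 8 were counted as separate samples. Spearman's correlation over the genes was 0.9973 to 0.9981 within a diet and 0.9157 to 0.9179 between diets.

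The limma fit held all 16 N2 libraries, so the spread behind each SE and p came from total and translated libraries together. A gene was called when limma gave an adjusted p (Benjamini-Hochberg over all 8224 genes) under 0.05 and the mean moved 2-fold or more. By this rule 303 genes rose under DR, 3.68% of those tested, and 648 fell, 7.88%. With the same p and no minimum fold, 2914 genes were higher (35.4%) and 3702 lower (45.0%), and the standard errors of the log2 changes had a median of 0.061. The 4 DR values lay above all 4 AL values in 34.3% of the genes and below them in 44.3%, called or not. The middle of the distribution was narrow, with a median log2 change of -0.06 and quartiles of -0.46 and 0.29, so that most genes moved by less than 2-fold. The share called varied with abundance but not steadily: of genes under 10 CPM 8.29% rose and 15.6% fell, between 100 and 300 CPM 1.29% and 4.81%, between 300 and 1000 CPM 2.67% and 10.9%, and above 1000 CPM 0.870% and 3.48%. In the following, "rose" and "fell" are kept for called genes, values are CPM for replicates 1 to 4 in order, folds are ratios of the 2 group means, and log2 changes (DR minus AL, with a pseudocount of 0.5 CPM) are given with their SE where a ± follows. A gene called "at the threshold" kept its direction but lost the call under another scaling or pseudocount or without 1 library, as the closing section gives by gene. Where a list below has no called member in 1 direction, an unadjusted p under 0.05 with the same fold gave none either, and edgeR gave none except where stated. Most genes passed the adjusted p already, so the fold decided the calls and the unadjusted p adds no support. In bulk RNA of whole worms, fewer cells of a type cannot be told apart from less RNA per cell.

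**Figure D1:**
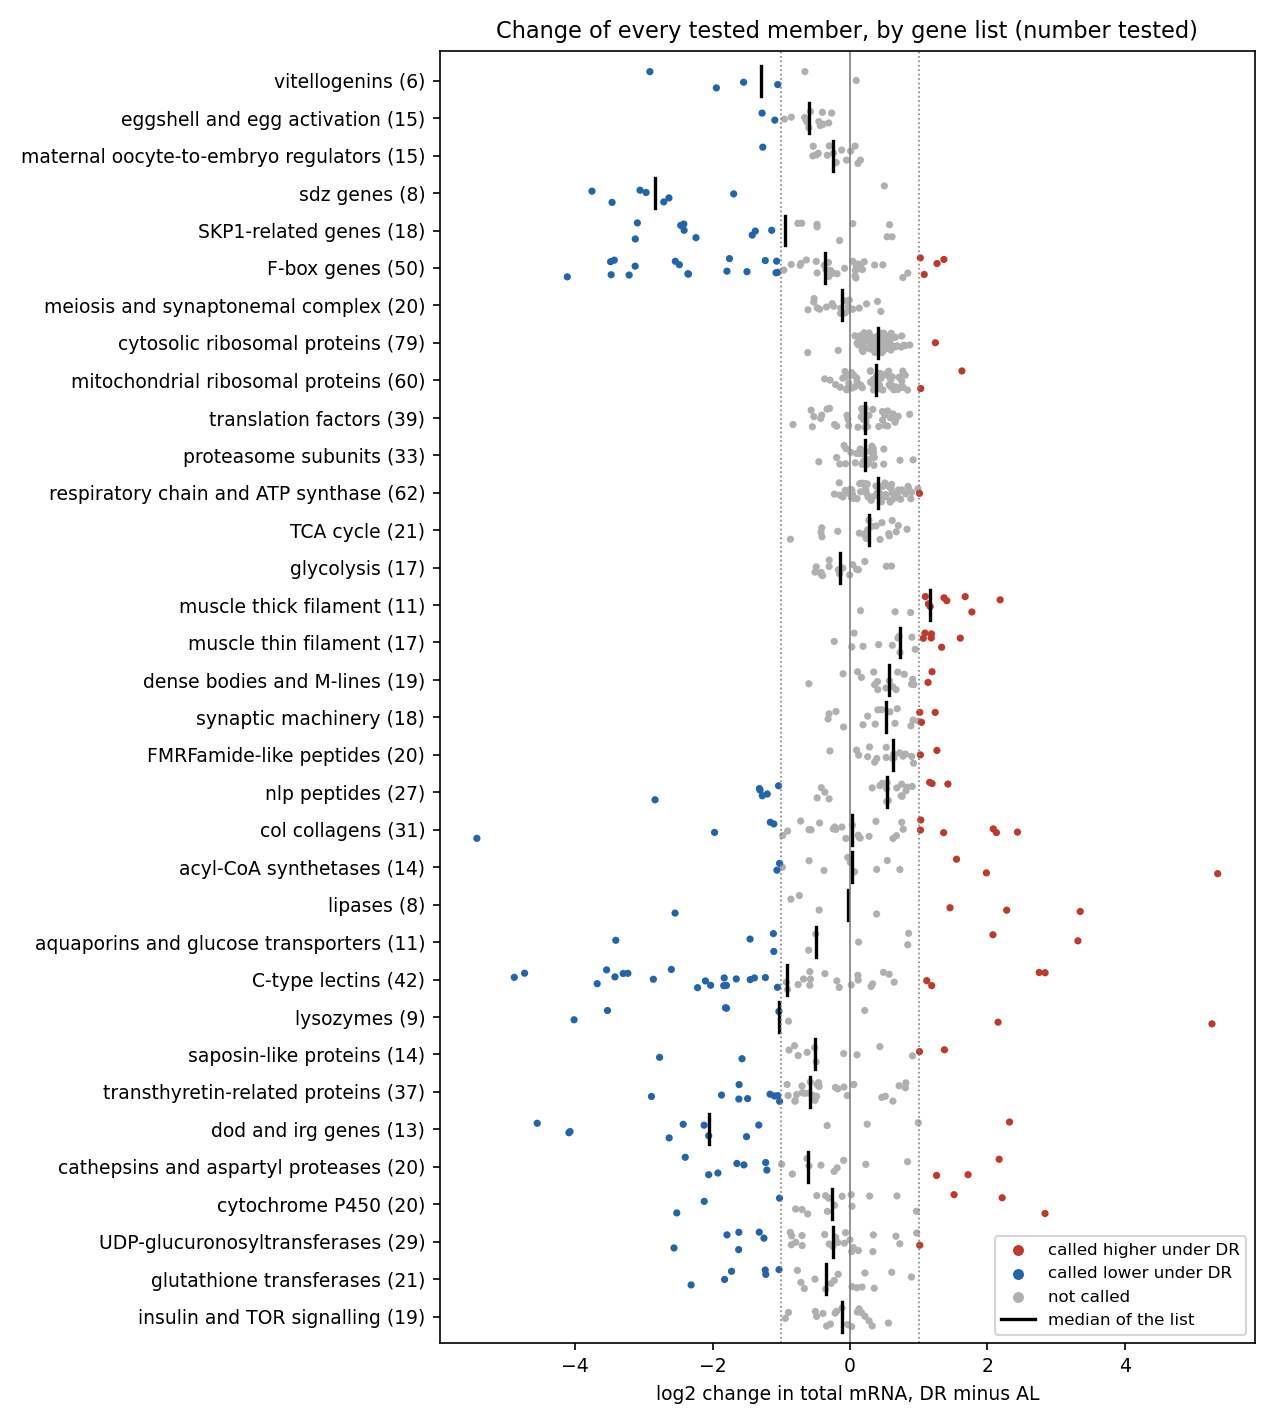
Log2 change in total mRNA (DR minus AL, x axis) of each tested member of 34 gene lists, 1 point per gene, with the number tested in brackets. Red points were called higher and blue points lower under DR, grey points were not called, black bars are list medians and dotted lines mark 2-fold. The medians of the muscle lists lie to the right of 0 and those of the *sdz*, SKP1-related and dod and irg lists to the left, and the C-type lectins, lysozymes and collagens spread on both sides.

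The yolk proteins lost a large share of the reads under DR. Vitellogenins are made in the intestine, secreted and taken up by oocytes through the receptor RME-2. Of 6 genes tested, 4 fell (against 7.88% of all genes) and 0 rose, with a median log2 change of -1.30 against -0.06 over all genes. The list took 3.89 ± 0.117% (SD, n = 4) of the coding reads under AL and 2.51 ± 0.0444% under DR. *vit-4* had 908, 900.0, 897 and 916 CPM in the AL libraries and 125, 112, 124 and 118 CPM in the DR libraries. The groups were far apart, and the 7.56-fold fall (log2 change -2.91 ± 0.03, adjusted p = 2.2e-44, limma) was the largest of the list. *vit-3* fell 3.86-fold, *vit-1* 2.94-fold and *vit-6* 2.08-fold, the last at the threshold. *vit-2*, the gene with the most reads of all under AL, had 17708, 16554, 17402 and 17672 CPM there and 11078, 11159, 10669.5 and 11073 CPM under DR. All its DR values lay below the AL values, but at 1.58-fold the difference stayed under the threshold. *vit-5* went the other way, with 6141 CPM in AL and 6537 CPM in DR libraries (log2 change 0.09). *vit-3*, *vit-4* and *vit-5* are near copies of each other, so that reads may be split between them. The yolk receptor gene *rme-2* of the oocyte fell 2.05-fold, from 924 ± 18.4 to 449.7 ± 12.8 CPM, also at the threshold.

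Genes of the egg itself were lower by less. The eggshell is built in layers at fertilization, from chitin and chondroitin proteoglycans. Of 15 eggshell and egg activation genes tested, 2 fell (against 7.88% of all genes). All 15 were lower at an adjusted p under 0.05 (against 45.0% of all genes), and their median log2 change was -0.60. *chs-1*, the chitin synthase of the eggshell, had 381, 369, 391.7 and 369 CPM in AL and 149.6, 163, 152 and 156 CPM in DR libraries. The ranges were well separated, and its fall was 2.43-fold (log2 change -1.28 ± 0.04, adjusted p = 1.6e-29, limma). The other was *egg-5*, a pseudophosphatase of egg activation, which fell 2.14-fold. *cpg-2*, a chondroitin proteoglycan and the member with the most reads, had 4116 ± 63.2 CPM in AL and 2644 ± 83.3 CPM in DR libraries, a log2 change of -0.64. Of 15 maternal regulators of the oocyte-to-embryo transition 1 fell, *oma-2*, a zinc finger protein of oocyte maturation (2.41-fold), and of 13 P granule components 1 fell, *car-1*, an RNA-binding protein of germ granules (2.93-fold), shares close to the 7.88% of all genes. *cgh-1*, the DDX6-type helicase with which CAR-1 is known to associate, had 1688 CPM in AL and 862 CPM in DR libraries and was just short of the threshold (log2 change -0.97). None of 20 meiosis and synaptonemal complex genes and none of 15 Argonautes was called by limma or edgeR, and their medians were -0.11 and -0.09. Without a minimum fold 9 and 8 of them were lower and 4 and 2 higher (against 45.0% and 35.4% of all genes). Of 16 germline and oocyte markers 2 fell (against 7.88% of all genes), *chs-1* and *rme-2*, with a median of -0.45. The summed level of the markers was 11445 to 12020.2 CPM in AL and 8557 to 8896 CPM in DR libraries.

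Transcripts known from the early embryo were lower under DR. Embryos held in the uterus contribute RNA to whole adults, and zygotic transcription begins there a few divisions after fertilization. The *sdz* genes, named as SKN-1-dependent zygotic transcripts, had 8 members above the filter. Of these 7 fell (against 7.88% of all genes), with a median log2 change of -2.84. *sdz-28* had 42.3, 45.5, 39.5 and 42.7 CPM in the AL and 2.77, 3.15, 2.07 and 2.82 CPM in the DR libraries. All DR values were far below the AL values, and the log2 change was -3.76 ± 0.10 (adjusted p = 2.6e-30, limma). *sdz-5* (-3.46), *sdz-26* (-3.06), *sdz-14* (-2.97), *sdz-25* (-2.71), *sdz-33* (-2.64) and *sdz-21* (-1.69) followed on the log2 scale, and *sdz-27* (0.50) was not called. With the minimum lowered to a mean of 1 CPM, 17 of 25 fell and 1 rose, where 9.19% of all 12167 genes then tested fell and 5.44% rose. Of 3 zygotic embryo markers above 8 CPM, *vet-6*, a very early embryonic transcript, fell 8.57-fold, while *lit-1*, a kinase of embryonic fate decisions, and *pal-1*, the Caudal homeobox factor, had log2 changes of -0.45 and -0.21. Summed over the 13 markers with reads, the level was 343 to 356 CPM under AL and 250.1 to 266 CPM under DR.

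Single genes with known roles in embryonic tissues also fell. They were picked from lists of other kinds with their values known, and no list of embryonic tissue genes was examined. *ceh-43*, the worm's Distal-less homeobox factor, fell from 18.8 ± 0.339 to 3.37 ± 0.596 CPM. *elt-1*, the GATA factor that specifies epidermis, had 16.7, 16.7, 19.7 and 17.1 CPM in AL and 5.55, 5.59, 5.17 and 5.15 CPM in DR libraries, and the groups did not overlap although AL replicate 3 stood above the rest. *wrt-10*, a secreted hedgehog-related protein gene, had 21.4, 21.6, 20.2 and 21.9 CPM in AL and 0.876, 1.57, 1.48 and 1.83 CPM in DR libraries, a 14.8-fold fall. *dpy-14*, a collagen gene first expressed in embryos, fell 12.1-fold, from 24.9 ± 2.32 to 2.06 ± 0.458 CPM. Of 24 homeobox genes tested, *ceh-43* and *ceh-40* (-1.80), a PBX-type gene, fell, whereas *php-3* (1.0999), a posterior Hox gene, and *ceh-79* (1.21) rose. The share that fell was close to that of all genes, and the list median of -0.15 became 0.20 when 54 members down to 1 CPM were tested. Of the 9 *nspg* genes, a family of short predicted peptides noticed after the values were seen, 8 fell (against 7.88% of all genes) with a median of -2.57. The T-box family, noticed in the same way, had 10 members at 1 CPM or more, of which 6 fell (against 9.19% of all genes then tested). The summed level of the embryo markers given above was lower in the same libraries, although *lit-1* and *pal-1* were not called. Whether that level has a part in the changes of these genes was not tested.

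The components of SCF ubiquitin ligases split by subfamily. In these ligases an F-box protein chooses the substrate and a SKP1-related adaptor ties it to the cullin, and *C. elegans* has expanded both families. Of 315 F-box genes on the list, 50 were tested, of which 4 rose and 17 fell (against 3.68% and 7.88% of all genes). *fbxb-75* had 16.98, 17.9, 17.2 and 16.99 CPM in the AL libraries and 0.438, 0.472, 0.443 and 0.776 CPM in the DR libraries. The groups lay far apart, DR replicate 4 being the highest of its group, and the log2 change was -4.12 ± 0.13. *fbxc-51* fell from 36.2 ± 1.57 to 2.78 ± 0.253 CPM. The 4 that rose were all *fbxa* genes, *fbxa-69* (1.37), *fbxa-163* (1.27), *fbxa-55* (1.08) and, at the threshold, *fbxa-106* (1.02). The subfamilies were compared after the values were seen. At a minimum of 1 CPM, 78 of 83 *fbxb* and 17 of 28 *fbxc* genes fell and 0 of either rose, with medians of -2.09 and -1.92. Among 103 *fbxa* genes tested in the same way, 12 rose and 11 fell around a median of 0.07. Of all genes then tested 9.19% fell and 5.44% rose. The minimum is a mean over both diets, so a gene near 0 under DR can pass through its AL values alone. Only 7 *fbxb* and 12 *fbxc* genes passed 8 CPM, of which 6 and 6 fell and 0 rose by limma and by edgeR. The difference between subfamilies was not tested, and many of these genes are close copies among which reads may be shared.

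Among the 18 SKP1-related genes tested, 9 fell and 0 rose (against 7.88% and 3.68% of all genes), with a median of -0.95. *skr-21* had 22.6, 24.2, 24.3 and 23.6 CPM in AL and 1.97, 1.97, 2.66 and 2.54 CPM in DR libraries. The DR values were close together and far below the AL values, a fall of 10.4-fold (log2 change -3.13 ± 0.16, adjusted p = 1.7e-20, limma). *skr-1*, the adaptor used by most SCF ligases and the member with the most reads, had 309 ± 4.45 CPM in AL and 473 ± 4.90 CPM in DR libraries, so that the general adaptor differed by a log2 value of only 0.61. In the cell cycle, 15 of 20 cyclin and kinase genes were lower at an adjusted p under 0.05 (against 45.0% of all genes). Only *cyd-1*, which encodes cyclin D, fell 2-fold or more (4.48-fold), where 7.88% of all genes did. *orc-1*, the large subunit of the origin recognition complex, was the only one called of 25 DNA replication genes, with 144, 144, 144 and 154 CPM in AL and 51.8, 55.5, 53.6 and 52.4 CPM in DR libraries. AL replicate 4 was the highest of its group, and no AL value came near the DR values (a 2.75-fold fall).

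**Figure D2:**
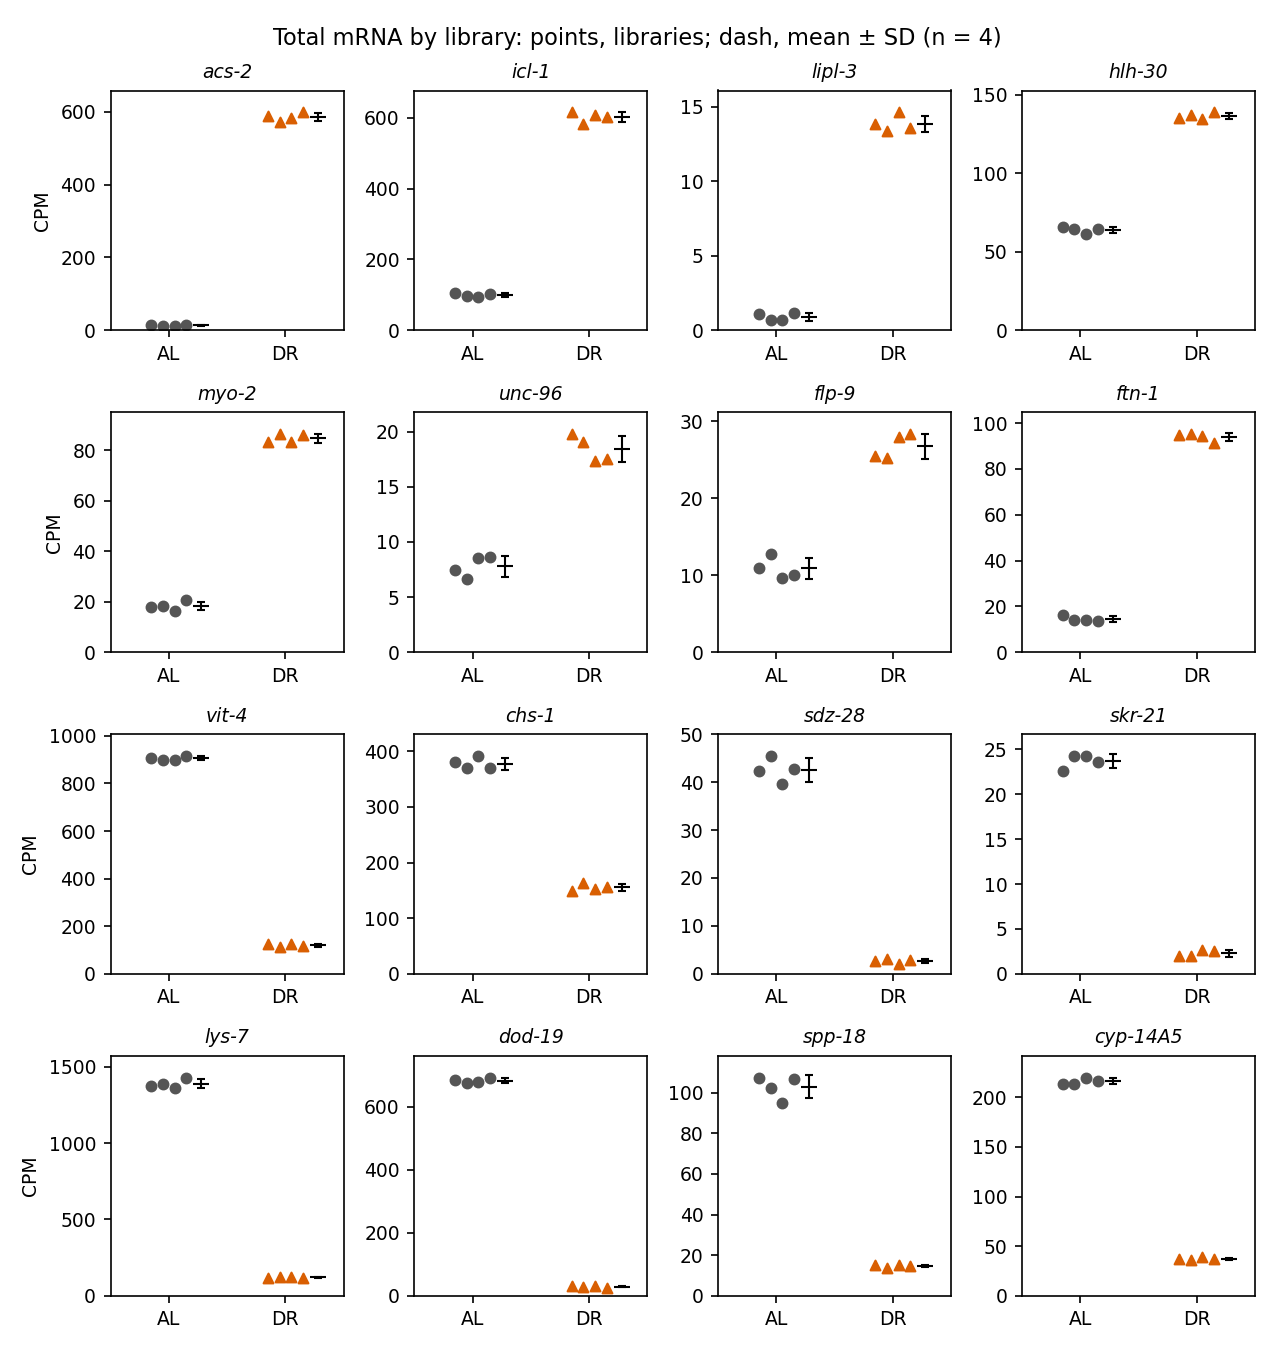
Total mRNA in CPM (y axes from 0) of 16 genes in each library, circles for AL and triangles for DR, with the mean and SD (n = 4) as a dash and bar. The 8 upper genes rose and the 8 lower genes fell, and in none of them do the groups overlap: *lipl-3* has at most 1.16 CPM under AL and at least 13.4 CPM under DR.

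Most ribosomal protein genes were higher under DR by small amounts, while other lists of protein synthesis were less uniform. Cytosolic ribosomal proteins, most of them single copies in the worm, had 79 members tested, of which 76 were higher (against 35.4% of all genes) and 2 lower under DR at an adjusted p under 0.05. Their median log2 change was 0.41, and only *rps-13*, a protein of the small subunit, rose 2-fold or more (2.37-fold). The acidic protein gene *rla-0* had 5294, 5270.4, 5332 and 5376 CPM in the AL and 7402, 7147, 7286 and 7427 CPM in the DR libraries, apart in every library but within 1.38-fold. As a group these genes took 13.3 ± 0.149% of coding reads under AL and 18.1 ± 0.303% under DR (SD, n = 4). Mitochondrial ribosomal proteins had a similar median (0.38 over 60 genes), and *mrps-7* (1.63) and, at the threshold, *mrpl-46* (1.03) rose. Of 39 translation factors, 26 were higher and 10 lower without a minimum fold and none was called, and the list went from 2.74 to 3.43% of coding reads. The elongation factor genes *eef-1A.1* and *eef-2* had 11141 and 3975 CPM under AL and 12862 and 5518 CPM under DR. Among 32 aminoacyl tRNA synthetases only *qars-1*, which charges glutamine tRNA, was called, at the threshold (log2 change 1.01), and 16 were higher and 5 lower without a minimum fold, with a median of 0.07. The rRNA share given above differed in the same libraries, and its part in these small shifts was not tested.

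**Figure D3:**
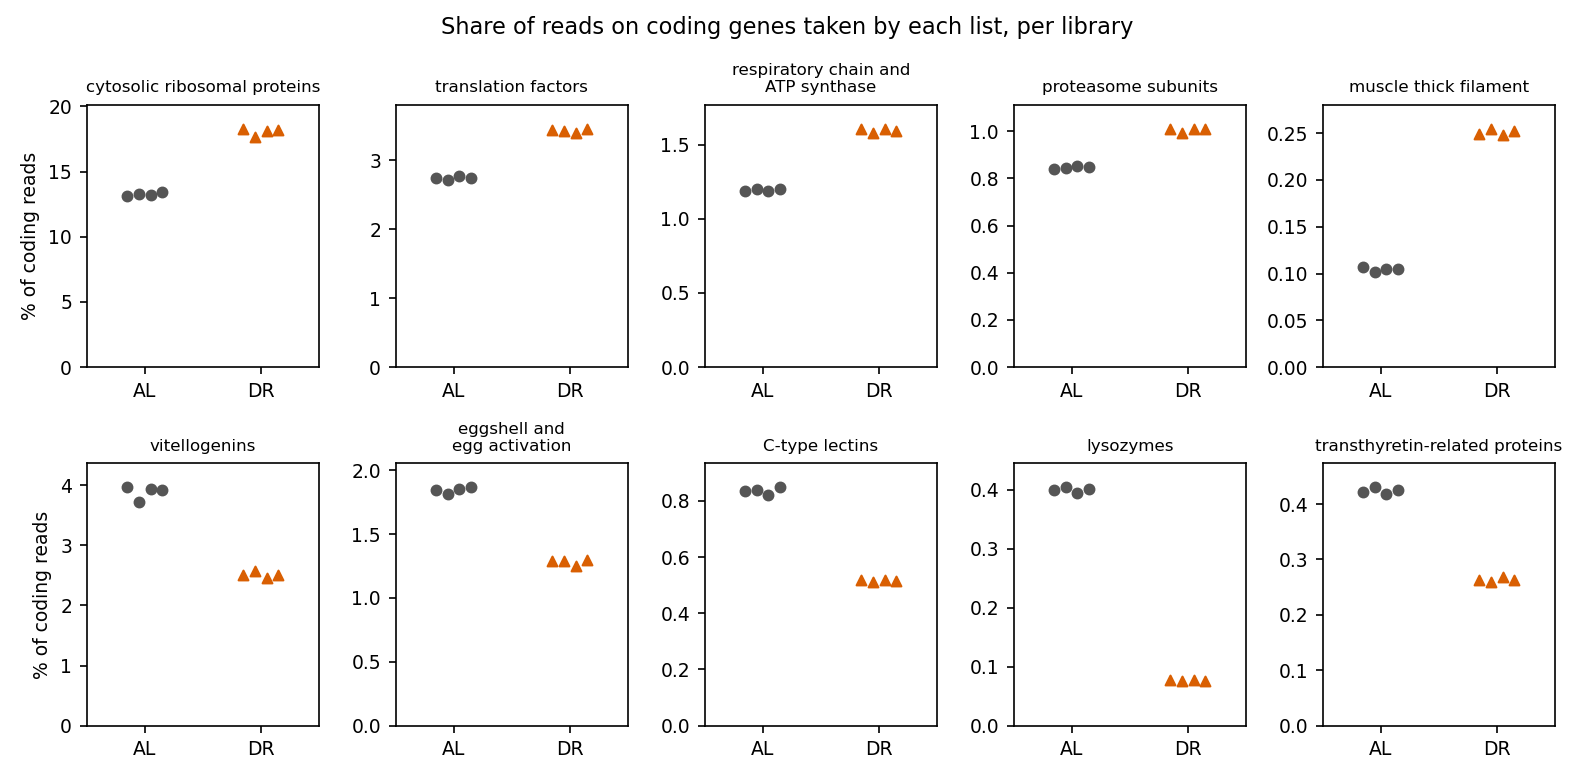
Percentage of coding reads (y axes from 0) that 10 gene lists took in each total mRNA library, circles for AL and triangles for DR. The groups of 4 are apart in every panel: ribosomal proteins, translation factors, the respiratory chain, the proteasome and the thick filament lie higher under DR, and vitellogenins, eggshell genes, C-type lectins, lysozymes and transthyretin-related genes lie lower.

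In protein turnover, genes were called among the lysosomal proteases and none among the proteasome subunits. Of 33 proteasome subunits 26 were higher without a minimum fold (against 35.4% of all genes), and their median was 0.22. The regulatory particle subunit gene *rpn-3* had 385 ± 3.51 CPM in AL and 492 ± 9.28 CPM in DR libraries. Of 20 cathepsins and aspartyl proteases, which digest protein in gut lysosomes, 3 rose and 7 fell (against 3.68% and 7.88% of all genes). The 3 that rose were all cathepsin B-like, *cpr-5* (2.17), *cpr-1* (1.72) and *cpr-4* (1.26), while *cpr-3*, of the same type, fell 5.43-fold. *cpr-5* had 3.23, 2.60, 2.76 and 3.19 CPM in the AL and 16.4, 13.3, 14.5 and 15.9 CPM in the DR libraries, 5.10-fold apart without overlap. *asp-6*, the aspartyl protease with the most reads, had 2045 CPM in AL and 1352 CPM in DR libraries. Of 24 autophagy genes 2 fell, a share close to the 7.88% of all genes. They were *epg-2*, an adaptor known for P granule degradation in embryos (7.14-fold), and *epg-8*, a subunit of the PI 3-kinase complex (2.15-fold). *lgg-1*, the Atg8 of the phagophore, had a log2 change of 0.07.

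Chaperones were not called more often than other genes, with 5 of 53 over 4 lists (9.43%) against 11.6% of all genes. The 8 subunits of the CCT chaperonin, which folds actin and tubulin, had a median of 0.15 and none was called. Of 11 HSP70 and HSP90 family genes, *hsp-60*, the mitochondrial chaperonin, was called lower at the threshold (2.06-fold). *hsp-90* had 2652 ± 30.3 CPM in AL and 3415 ± 58.9 CPM in DR libraries. Among 5 small heat shock proteins *hsp-12.2* rose (1.38) and *hsp-17* fell (-1.65), and 13% of the exon bases of *hsp-17* overlap a gene on the other strand, whose reads an unstranded library cannot separate. Of 29 DnaJ co-chaperone genes 2 fell and 0 rose (against 7.88% and 3.68% of all genes).

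Muscle filament genes were higher under DR. In the sarcomere, myosin thick filaments are anchored at M-lines and pull on actin thin filaments, which are fixed to the body wall through integrin-based dense bodies. All 11 thick filament genes tested were higher at an adjusted p under 0.05 and 8 rose 2-fold or more (background shares 35.4% and 3.68%), with a median of 1.17. *myo-2*, a myosin heavy chain of the pharynx, had 18.03, 18.1, 16.5 and 20.5 CPM in AL and 83.3, 86.3, 83.03 and 86.1 CPM in DR libraries. The 2 groups were 4.64-fold apart (log2 change 2.19 ± 0.07, adjusted p = 3.8e-28, limma). *myo-3*, a heavy chain of body wall muscle, rose 3.24-fold from 22.8 ± 2.31 to 73.8 ± 3.92 CPM. The thick filament share of coding reads was 0.105 ± 0.00242% under AL and 0.251 ± 0.00299% under DR. Of 17 thin filament genes 6 rose and 0 fell (against 3.68% and 7.88% of all genes), with a median of 0.73. Reads of the actin and light chain genes may be shared between copies.

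The structures that anchor and control the filaments followed with smaller values. Of 19 dense body and M-line genes, 15 were higher without a minimum fold (against 35.4% of all genes). By the call 2 rose (against 3.68% of all genes), *unc-96* of the M-line and *lim-8*, a LIM domain protein of the attachments. *unc-96* had 7.44, 6.61, 8.55 and 8.59 CPM in the AL and 19.8, 19.05, 17.4 and 17.5 CPM in the DR libraries. The lowest DR value was still 2-fold above the highest AL value, and the fold between means was 2.36. The beta integrin gene *pat-3* had 144 ± 4.41 CPM in AL and 95.1 ± 3.1103 CPM in DR libraries and was not called. Of 10 calcium handling genes 3 rose (against 3.68% of all genes). They were *ncx-2* (1.305), a sodium-calcium exchanger, *csq-1* (1.11), calsequestrin of the sarcoplasmic reticulum, and, at the threshold, *jph-1* (1.01), which ties that store to the surface membrane. *sca-1*, the calcium pump of the store, had a log2 change of 0.35. Summed over 11 body wall muscle markers with reads (*hlh-1*, the MyoD-type factor, was at 0 in all 8 libraries), the level was 1111 to 1152 CPM under AL and 2471 to 2530.5 CPM under DR, and over 13 pharynx markers 106.18 to 119.4 CPM and 269 to 275 CPM. The share of muscle in the RNA and the level within muscle cannot be told apart here.

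Neuron markers and synaptic genes were shifted in the same direction, with few calls, while other peptide families were mixed. None of 11 neuron markers was called by limma or edgeR, and their median was 0.47. *snb-1*, the synaptobrevin of synaptic vesicles, had 259 ± 9.27 CPM in AL and 334 ± 4.42 CPM in DR libraries. Of 18 genes of the synapse, 14 were higher without a minimum fold and 3 rose (against 35.4% and 3.68% of all genes). The largest rise was that of *unc-13*, which primes vesicles for release (1.2405). The rest, both at the threshold, were *cpx-1*, a complexin that clamps release (1.04), and *unc-49*, a GABA receptor of muscle (1.02). Of 20 FMRFamide-like peptide genes 17 were higher without a minimum fold (against 35.4% of all genes), with a median of 0.63. *flp-9* had 10.998, 12.8, 9.67 and 10.04 CPM in AL and 25.5, 25.18, 27.997 and 28.4 CPM in DR libraries. All DR values lay well above the AL values, a 2.46-fold rise, and *flp-15* was called at the threshold (1.03), while *flp-1* had a log2 change of 0.81. Of 27 *nlp* genes 17 were higher and 10 lower without a minimum fold. By the call 3 rose, *nlp-51* (1.43), *nlp-18* (1.195) and *nlp-9* (1.16), and 6 fell (against 3.68% and 7.88% of all genes). Of those that fell, *nlp-39* had 16.11 ± 2.49 CPM in AL and 1.82 ± 0.362 CPM in DR libraries. *nlp-40*, a peptide of the intestine that times defecation, was called lower at the threshold (2.06-fold). Of the insulin-like genes only 5 of 39 passed the filter. *ins-34* fell (-1.14, on exon bases shared in part with a gene on the other strand), and *ins-7*, an agonist of the DAF-2 receptor, had 13.1 ± 0.545 CPM in AL and 18.9 ± 1.29 CPM in DR libraries. Of 15 innexins, which form gap junctions, *inx-2* (-1.19) and, at the threshold, *inx-3* (-1.03) fell, and *inx-14*, an innexin of the germ line, had a log2 change of 0.58.

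Collagens of the cuticle, the worm's skin, changed gene by gene. Of 31 *col* genes tested out of 156, 6 rose and 4 fell (against 3.68% and 7.88% of all genes). Their median was 0.03 (-0.002 without AL replicate 3). *col-129* had 3.15, 4.33, 3.28 and 5.02 CPM in AL and 23.6, 24.6, 20.5 and 24.5 CPM in DR libraries, and *col-94* 9.73 CPM in AL and 44.1 CPM in DR. Both rose without overlap, by 5.91-fold and 4.54-fold. *col-19*, a marker of the adult epidermis, was called higher at the threshold (2.04-fold). In the other direction *col-95* (-1.97), *col-101* (-1.16) and *col-181* (-1.11) fell besides *col-183* (-5.43), the largest decrease of all genes tested. The change of *col-183* ranged from -6.36 to -4.87 over the alternatives, and 11.6% of its exon bases overlap a gene on the other strand. Among 16 basement membrane genes only *lam-3*, a laminin chain, was called, at the threshold (-1.03), and *ost-1*, the SPARC-type calcium-binding protein, had 216 CPM in AL and 329 CPM in DR libraries. Of 8 epidermis markers tested, *col-19* rose and *elt-1* fell.

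Few enzymes of central metabolism were called. The glyoxylate shunt gene *icl-1* had 105, 96.8, 94.4 and 103 CPM in AL and 615, 583, 606 and 601 CPM in DR libraries. It encodes the enzyme that turns acetyl groups from fat into sugar precursors, and it rose 6.02-fold with no overlap (log2 change 2.59 ± 0.03, adjusted p = 4.6e-41, limma). Of the other genes on its list, *pck-1* (0.94) and *pck-2* (0.53), the PEP carboxykinases that open gluconeogenesis, *mdh-2* (-0.41), malate dehydrogenase, and *pyc-1* (0.52), pyruvate carboxylase, were not called. None of 17 glycolysis genes was called, and 5 were higher and 9 lower without a minimum fold (against 35.4% and 45.0% of all genes). Enolase (*enol-1*) had 613 ± 7.77 CPM in AL and 552 ± 15.8 CPM in DR libraries. In storage, *gyg-1*, the glycogenin that primes glycogen, rose 2.41-fold and *tps-2*, a trehalose phosphate synthase, 2.02-fold at the threshold, and glycogen phosphorylase (*pygl-1*) had a log2 change of -0.70.

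The mitochondrial lists moved by small steps. Of 21 TCA cycle genes none was called, with a median of 0.27. Without a minimum fold 16 were higher and 5 lower (against 35.4% and 45.0% of all genes). Citrate synthase (*cts-1*) had 532, 533, 528 and 548 CPM in AL and 859, 859, 834 and 859.8 CPM in DR libraries. DR replicate 3 stood below the other DR libraries, and all DR values lay above all AL values. The respiratory chain and ATP synthase had 49 of 62 genes higher and 3 lower without a minimum fold, a median of 0.41 and 1.19 ± 0.00854% of coding reads under AL against 1.59 ± 0.0136% under DR. Only the complex I gene *nduf-5* was called, at the threshold (log2 change 1.01), and *atp-2*, the beta subunit of ATP synthase, had a log2 change of 0.27.

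Several genes of fat use changed by a large factor. Acyl-CoA synthetases activate fatty acids, and of 14 tested *acs-2*, *acs-3* and *acs-17* rose (log2 changes 5.35, 1.99 and 1.55) while *acs-13* and *acs-1* were called lower at the threshold (-1.06 and -1.03). In beta-oxidation *hacd-1*, a hydroxyacyl-CoA dehydrogenase, rose 2.98-fold, *ech-7*, an enoyl-CoA hydratase, fell 3.45-fold and *pmp-4*, a peroxisomal ABC transporter, rose 2.38-fold. None of 9 acyl-CoA dehydrogenases was called. The lysosomal lipase gene *lipl-3* had 1.13, 0.708, 0.691 and 1.16 CPM in the AL and 13.9, 13.4, 14.6 and 13.5 CPM in the DR libraries. The AL values rested on few reads and lay far below the DR values, a log2 change of 3.35 ± 0.13 (adjusted p = 1.2e-24, limma). *lipl-1* rose as well (3.88, 3.38, 4.23 and 4.15 CPM in AL and 21.1, 20.7, 20.6 and 21.2 CPM in DR), whereas *lipl-5*, of the same family, fell 5.92-fold. *lips-15* rose 2.76-fold, and *atgl-1*, the triglyceride lipase of lipid droplets, had 96.7 ± 3.38 CPM in AL and 70.7 ± 0.856 CPM in DR libraries, a log2 change of -0.45.

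In fatty acid synthesis, *fat-3*, the delta-6 desaturase, was called higher (1.02) and *elo-2*, an elongase of saturated fatty acids, lower (-1.05), both at the threshold. *fat-2*, the desaturase that makes linoleic acid, had 763 CPM in AL and 1045 CPM in DR libraries. Of 8 lipid-binding protein genes *lbp-1* (-1.28) and *lbp-2* (-1.22) fell, and *lbp-9* had a log2 change of -0.77.

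Amino acid breakdown gave 2 large increases. *daao-1*, a D-amino acid oxidase, had 1.46, 1.81, 1.47 and 2.32 CPM in AL and 39.6, 36.7, 40.3 and 35.4 CPM in DR libraries. This was a 21.6-fold rise without overlap (log2 change 4.103 ± 0.13), and *ddo-2*, a D-aspartate oxidase, rose 8.19-fold. *gln-6*, a glutamine synthetase, had 1099.8 CPM in AL and 673 CPM in DR libraries. In tyrosine breakdown *gst-42*, the maleylacetoacetate isomerase, fell 3.51-fold, and *fah-1*, which catalyses the last step, had 88.1, 88.0, 88.3 and 91.7 CPM in AL and 49.8, 41.004, 44.03 and 49.4 CPM in DR libraries. Its DR values were all lower, by 1.93-fold, and it was not called. *alh-9*, an aldehyde dehydrogenase, fell 2.23-fold and *cth-2*, a cystathionine gamma-lyase, 2.62-fold, while *ahcy-1*, the S-adenosylhomocysteine hydrolase, had a log2 change of 0.46. *pfas-1* of purine synthesis rose 2.24-fold, and so did the amino acid transporter genes *aat-5* (2.89-fold) and *slc-36.5* (3.07-fold).

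Membrane channels for water, glycerol and sugar were divided, with 2 higher and 4 lower of 11 tested (against 3.68% and 7.88% of all genes). *aqp-1*, an aquaglyceroporin, had 10.51, 8.97, 10.7 and 10.2 CPM in AL and 106, 105, 106 and 103 CPM in DR libraries, and *swt-6*, a SWEET-type sugar transporter, 95.3, 103, 96.3 and 98.0 CPM in AL and 8.17, 8.42, 8.64 and 9.95 CPM in DR libraries. The first rose 10.4-fold and the second fell 11.1-fold, each without overlap. *swt-1* rose (2.08), and *aqp-2* (-1.45), *swt-7* (-1.12) and *aqp-10* (-1.11) fell.

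In 4 families that include genes of intestinal defence, more of the tested genes fell (29 of 76) than rose (9). Some C-type lectins, lysozymes, saposin-like proteins and galectins are secreted or stored by the gut and bind or lyse bacteria. The lists were built by family, so not every member is a gene of gut defence. Of 42 C-type lectins tested out of 237, 4 rose and 20 fell (against 3.68% and 7.88% of all genes), with a median of -0.92. The members that rose were *clec-5* (2.84), *clec-60* (2.75), *clec-48* (1.19) and *clec-7* (1.12). *clec-5* had 3.64, 2.75, 3.54 and 3.57 CPM in AL and 26.3, 29.3, 27.7 and 25.5 CPM in DR libraries, and *clec-60* 1.26 CPM in AL and 11.3 CPM in DR. *clec-87*, the lectin with the most reads, had 1759.8 ± 32.9 CPM in AL and 2211 ± 41.9 CPM in DR libraries, and 14.4% of its exon bases overlap a gene on the other strand. Down to 1 CPM, 13 of 88 rose and 29 fell, and the median was -0.18, and with no filter it was 0.003. Many lectin genes are copies of each other among which reads may be shared.

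Of 9 lysozymes tested 2 rose and 5 fell (against 3.68% and 7.88% of all genes). Down to 1 CPM, 4 of 12 rose and 5 fell, where 5.44% and 9.19% of all genes did. *lys-7* had 1376, 1387, 1361 and 1430.3 CPM in the AL and 118, 119.8, 122.5 and 119.004 CPM in the DR libraries. Every DR library was far below every AL library, by 11.6-fold on average (log2 change -3.53 ± 0.03, adjusted p = 1.3e-49, limma). *lys-2* went from 1087 ± 14.1 to 66.7 ± 2.47 CPM, and *lys-1* (-1.81), *lys-8* (-1.80) and, at the threshold, *ilys-5* (-1.04) were also called lower. In the opposite direction *lys-4* rose 4.61-fold, and the invertebrate-type lysozyme gene *ilys-3* rose from 0.898 ± 0.131 to 53.4 ± 3.69 CPM (log2 change 5.27). Together the lysozymes made up 0.400 ± 0.00392% of coding reads under AL and 0.0763 ± 0.00116% under DR.

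Among 14 saposin-like genes *spp-18* had 108, 102, 95.2 and 107 CPM in AL and 14.96, 13.8, 15.1 and 14.7 CPM in DR libraries, a 7.04-fold fall without overlap, and *spp-8* fell 2.99-fold. *spp-23* (1.38) and, at the threshold, *spp-14* (1.01) rose, and *spp-5*, which encodes a pore-forming antibacterial protein, had a log2 change of -0.75. Of 11 galectins *lec-2* rose 5.30-fold, and *lec-8* and *lec-6* fell 4.08-fold and 3.48-fold. *cht-1*, a chitinase, fell 7.19-fold, from 289 ± 6.14 to 40.1 ± 3.004 CPM. Of 37 transthyretin-related genes 9 fell and 0 rose (against 7.88% and 3.68% of all genes), with a median of -0.58. Lowest was *ttr-50* (-2.89), while *ttr-15*, with the most reads, had 879 CPM in AL and 603 CPM in DR libraries. *scl-2*, an SCP-like secreted protein gene, was one of the larger increases, with 15.9, 16.8, 17.01 and 15.2 CPM in AL and 235.3, 229, 231 and 244 CPM in DR libraries, or 14.5-fold.

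The *dod* and *irg* genes are named as targets downstream of DAF-16 and as infection response genes in worms. Of 13 tested 9 fell and 1 rose (against 7.88% and 3.68% of all genes), with a median of -2.06. *dod-19* had 685, 675, 679 and 693 CPM in AL and 31.02, 28.1, 30.1 and 25.5 CPM in DR libraries, a 23.8-fold fall. No DR value came near the AL range (log2 change -4.55 ± 0.04, adjusted p = 6.5e-48, limma). The gene that rose was *dod-3*, from 8.66 ± 1.12 to 45.1 ± 1.66 CPM. Of 23 immune signalling genes, *tir-1*, the SARM-type adaptor above the p38 pathway, fell 3.12-fold, *tol-1*, the Toll-like receptor, fell 2.19-fold and *hlh-30* rose, and *zip-2*, a bZIP factor of the infection response, had 555 CPM in AL and 399 CPM in DR libraries. Intestine markers had a summed level of 1704 to 1788 CPM in AL and 1639 to 1699 CPM in DR libraries and a median of -0.10, although *ges-1*, the gut esterase, fell (-1.61) and *cpr-1* rose.

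In detoxification 20 of 107 genes over 6 lists fell (18.7%, against 7.88% of all genes) and 7 rose (6.54%, against 3.68%), but not every family leaned downward. Cytochrome P450 enzymes oxidize foreign and endogenous lipophilic compounds, and UDP-glucuronosyltransferases and glutathione transferases attach a soluble group. *cyp-14A5* had 214, 214, 220.0 and 217 CPM in AL and 37.4, 35.7, 38.6 and 37.2 CPM in DR libraries, 5.81-fold lower without overlap. *cyp-36A1* (-2.12) and, at the threshold, *cyp-25A2* (-1.03) were also called lower, and the same number of the 20 tested, 3, rose, led by *cyp-34A9* (2.84). Of 29 UDP-glucuronosyltransferases 6 fell, led by *ugt-26* (137 ± 4.67 CPM in AL and 22.8 ± 0.843 CPM in DR libraries), and only *ugt-1* was called higher, at the threshold (1.02). Of 21 glutathione transferases 6 fell and 0 rose (0 also by edgeR), with a median of -0.35. Down to 1 CPM, 2 of 37 glutathione transferases rose and 7 fell, with a median of -0.17. Of 54 UDP-glucuronosyltransferases then tested 8 rose and 8 fell, and of 49 cytochrome P450 genes 5 rose and 8 fell. Of all genes then tested 5.44% rose and 9.19% fell. *gstk-1*, of the kappa class, had 46.9, 47.3, 48.9 and 46.7 CPM in AL and 8.76, 10.4, 8.64 and 8.89 CPM in DR libraries, and *gst-24*, with the most reads, 358 CPM in AL and 457 CPM in DR. DR replicate 2 stood apart from the other DR libraries for *gstk-1*, which fell 5.17-fold.

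Of 4 flavin monooxygenase genes tested, *fmo-1* rose from 4.57 ± 0.986 to 35.6 ± 1.93 CPM, and *fmo-3* fell from 10.2 ± 1.15 to 3.20 ± 0.986 CPM. *dhs-26*, a short-chain dehydrogenase gene, rose 3.10-fold. In redox defence only the thioredoxin reductase gene *trxr-1* was called of 18 tested (2.03-fold higher), and *prdx-2*, a peroxiredoxin, had 623 CPM in AL and 771 CPM in DR libraries. The 2 ferritins, which store iron, differed: *ftn-1* had 16.4, 14.2, 14.2 and 13.4 CPM in AL and 95.02, 95.2, 94.5 and 91.4 CPM in DR libraries, and *ftn-2* 246 CPM in AL and 316 CPM in DR. *ftn-1* rose 6.47-fold with all DR values far above the AL values, and *ftn-2* had a log2 change of 0.36.

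Of 53 regulators on 3 lists of nutrient signalling, 3 were called (5.66%, against 11.6% of all genes). Among 24 transcription factors of the diet response alone, 2 rose and 1 fell, a share near that of all genes. None of 19 insulin and TOR signalling genes was called by limma or edgeR. Without a minimum fold 5 were higher and 10 lower (against 35.4% and 45.0% of all genes). Of 11 AMPK and LKB1 genes none was called by limma and 1 by edgeR, with a median of 0.28, and the gamma subunit gene *aakg-5* had a log2 change of -0.14. *hlh-30*, the TFEB-type activator of lysosomal and autophagy genes, had 65.7, 64.5, 61.2 and 64.7 CPM in the AL and 135, 137, 135 and 139 CPM in the DR libraries. All 4 DR values lay far above the AL values, a 2.13-fold rise. *mxl-3*, a bHLH factor known in worms to repress the same lipase genes, rose as well (34.4, 34.5, 32.2 and 35.9 CPM in AL and 107, 106, 105 and 107 CPM in DR, 3.112-fold), as did *mdl-1*, a Mad-type bHLH factor (1.08). These 3 were the called genes among 10 bHLH genes tested, with a median of 0.23. Down to 1 CPM, 3 of 18 rose and 5 fell, and the median was -0.01.

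Of 64 nuclear hormone receptors tested out of 274, 7 rose and 3 fell (against 3.68% and 7.88% of all genes), with a median of 0.20. *nhr-117* rose 5.03-fold, from 3.97 ± 0.304 to 19.97 ± 1.59 CPM. The 3 that fell were *nhr-62* (-1.31), which is known to be needed for the long life of food-restricted worms, *sex-1* (-1.19), a receptor of sex determination, and, at the threshold, *nhr-112* (-1.03). *nhr-62* had 9.38, 10.46, 11.4 and 11.6 CPM in AL and 5.47, 3.94, 3.55 and 3.32 CPM in DR libraries. The DR values were all lower, with DR replicate 1 the nearest to the AL range. *skn-1*, the Nrf-type factor, had 225 ± 6.27 CPM in AL and 161 ± 1.79 CPM in DR libraries (log2 change -0.48). *daf-36*, an oxygenase in the synthesis of the dafachronic acid hormones, fell from 9.81 ± 0.906 to 2.62 ± 0.454 CPM and was the only called gene among 9 of TGF-beta and dauer signalling.

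In translated mRNA of the same diets, the diet effect differed for part of these genes. No label says whether a total and a translated library share a lysate, and the fit did not pair them. The difference (translated minus total) was tested as an interaction in the same limma fit and passed the same thresholds upward for 316 genes (3.84%) and downward for 147 (1.79%). Replicate numbers as a block left both counts unchanged. They depended on scaling, with 195 upward and 279 downward in CPM without the composition factor. In translated DR libraries rRNA took 11.5 to 20.9% of the reads. Of the 648 genes that fell in total mRNA, 135 had an upward difference and 2 a downward one, and of the 303 that rose, 18 and 16. The total libraries enter both contrasts, so these counts are not independent.

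Upward differences, which 3.84% of all genes had, were found in several lists of defence genes and in other lists. Of 14 saposin-like genes 10 had one, with a median log2 change of -0.50 in total and 1.104 in translated mRNA. The same held for 6 of 9 lysozymes, 13 of 42 C-type lectins, 6 of 21 glutathione transferases and 6 of 20 FMRFamide-like peptide genes. It also held for 8 of 31 *col* genes, 5 of 20 cathepsins and aspartyl proteases and 6 of 27 *nlp* genes, of which 1 more had a downward difference. *spp-5* had a log2 change of -0.75 in total and 0.61 in translated mRNA (interaction 1.37, adjusted p = 4.3e-27, limma), and *lys-7* of -3.53 and -1.54. Ribosomal proteins went the other way, with a median of 0.41 in total and -0.18 in translated mRNA, and 7 of 79 had a downward difference. For the thick filament the median was higher in translated mRNA (1.86) than in total mRNA (1.17). Over all genes the medians were -0.06 in total and -0.09 in translated mRNA.

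**Figure D4:**
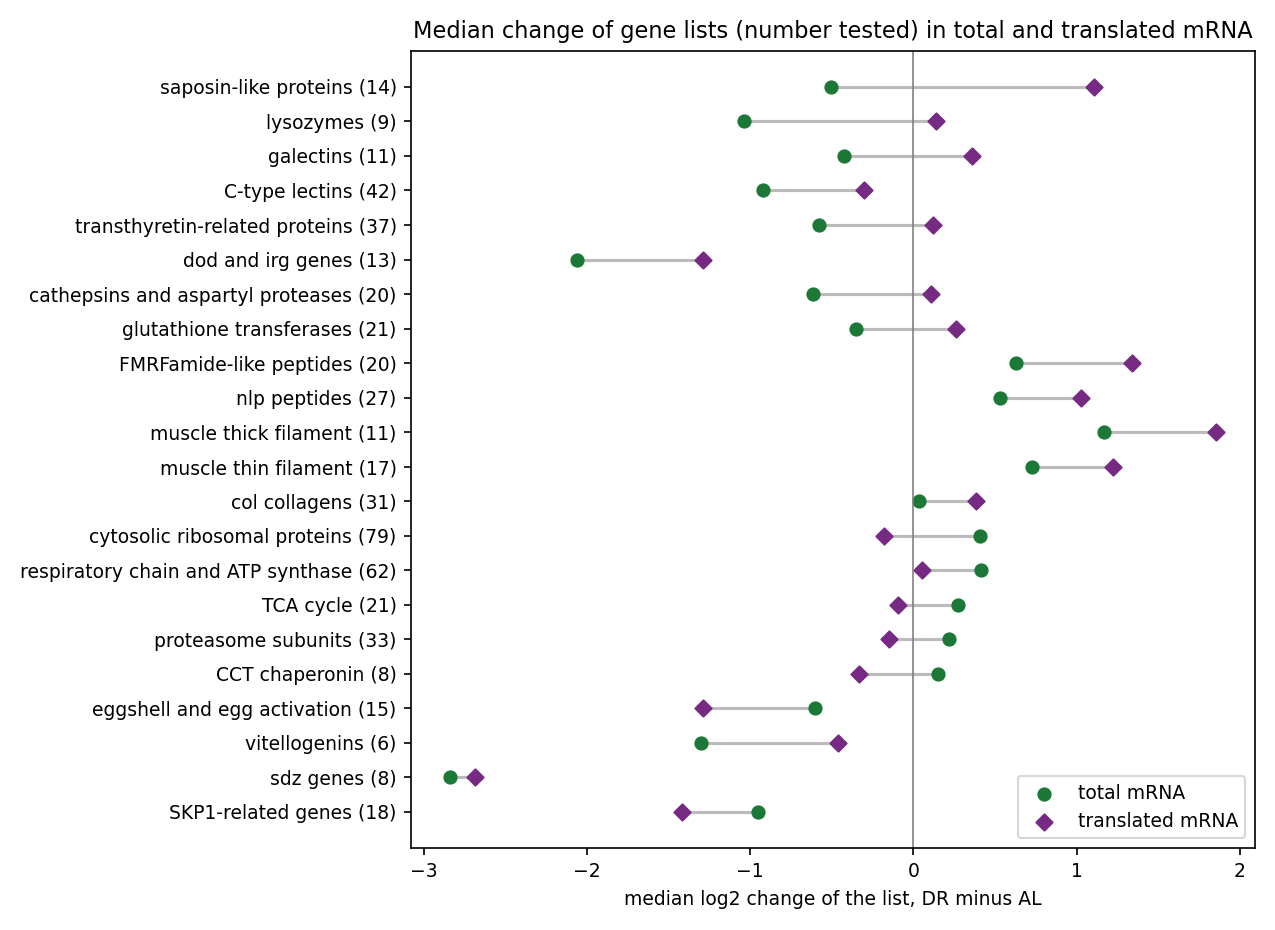
Median log2 change (DR minus AL, x axis) of 22 gene lists in total mRNA (circles) and translated mRNA (diamonds), with the number of genes tested in brackets. Saposin-like proteins run from -0.50 in total to 1.104 in translated mRNA, while cytosolic ribosomal proteins run from 0.41 to -0.18.

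Called genes were spread over all chromosomes (gene locations from assembly WBcel235). The share that rose was highest on V (5.996% of 1401 tested) and lowest on III (2.18% of 1511). The share that fell was highest on X (10.6% of 1036) and V (10.2%) and lowest on III (4.90%) and I (5.93% of 1534). These shares are a description, because genes of 1 family lie in clusters and are not independent. Chromosomes II (8.54%) and IV (8.24%) lay between for genes that fell.

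**Figure D5:**
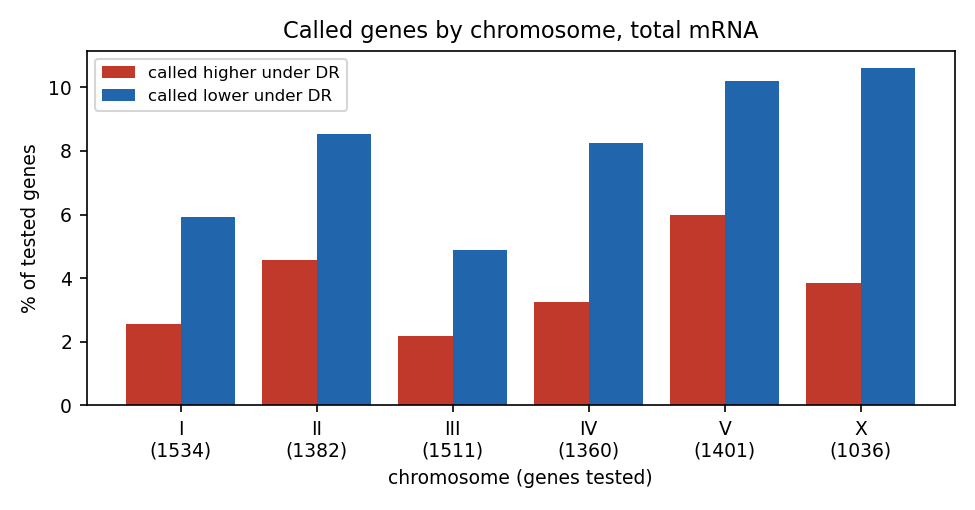
Percentage of tested genes (y axis from 0) called higher (red) or lower (blue) under DR in total mRNA on each chromosome, with the number tested in brackets. On every chromosome more genes fell than rose, from 4.90% on III to 10.6% on X for genes that fell.

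Most called genes were on none of the lists: 106 of the 303 that rose (34.98%) and 176 of the 648 that fell (27.16%) were on one, where 1702 of the 8224 tested genes were (20.7%). The largest increases outside the lists, beside *T16G1.7* (log2 change 5.27), were those of *T22F3.11* and *adh-1*, an alcohol dehydrogenase gene. *T22F3.11* had 0.566, 0.865, 0.345 and 0.966 CPM in AL and 27.95, 28.7, 25.19 and 25.4 CPM in DR libraries, and *adh-1* 22.8, 21.7, 20.4 and 22.5 CPM in AL and 323, 323, 324 and 325 CPM in DR. Both rose without overlap (log2 changes 4.56 ± 0.18 and 3.86 ± 0.04), the first from an AL level that rested on few reads. The largest decreases were those of *C17F4.7*, *F01D5.2* and *dct-17*, a gene named from a screen on germline tumours. *C17F4.7* had 2837, 2913, 2790.3 and 2850.3 CPM in AL and 110.4, 102, 108 and 108 CPM in DR libraries, and *dct-17* 114.9, 118, 119.6 and 112 CPM in AL and 4.09, 5.04, 4.80 and 4.37 CPM in DR. Both fell to a small part of the AL level, 26.6-fold and 25.4-fold, and *F01D5.2* went from 24.1 ± 0.318 to 0.521 ± 0.208 CPM.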

How the data were processed

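Total polyA RNA of whole N2 worms was sequenced as 100 bp read pairs from an unstranded library. According to the methods and processing notes, the authors aligned reads to genome WS220 with TopHat, counted them per gene with HTSeq (version 0.6.1) and normalized them with edgeR (version 3.0). The deposited signal values are reads divided by the library's reads times a composition factor, scaled as CPM, and 100% of them were whole multiples of 1 read. The composition factor was 0.975 to 1.025 in AL and 1.032 to 1.051 in DR total libraries. The table has 45461 genes, of which 44936 matched the annotation of Ensembl release 115. Analysis was restricted to the 8224 coding genes averaging 8 CPM or more across all N2 libraries (16). Values were transformed as log2 of CPM plus 0.5 and compared with limma (version 3.58.1, R 4.3.3), its prior variance following abundance. Tested on simulated reads for the comparison of total mRNA, limma recovered 100% of 200 genes given a log2 difference of 1.5 and made 0 false calls among the 8224 genes. All other genes were simulated without a difference, so this checks that the fit runs correctly and does not measure errors for genes near the 2-fold threshold.

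Gene lists were built from gene names and known functions. The lists, the naming rule and the tests were chosen with earlier results of these data known. By the naming rule a list's members could be named where at most 8 were tested, and otherwise the called member with the largest increase and the one with the largest decrease (without overlap), the next of each in lists of over 30, and the member with the most reads. Outside the lists, it took the 10 genes with the most reads per diet, the 3 largest increases and the 3 largest decreases. Of 313 genes that could be named, 163 are described, and the choice among them was made with their values known. Where 5 or fewer members of a list were called in 1 direction, the rest of them were added, and these, *rme-2* and the *nspg*, T-box and F-box subfamilies and the counts pooled over several lists were chosen after their values were seen. A check of promoter motifs was planned and not run, as no promoter sequences were used here. The double mutant was not analysed here. Alternatives were other pseudocounts, filters, scalings, libraries in the fit, genes of all types, edgeR (version 4.0.16) on recovered reads, a replicate block and leaving out each library.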

Additional observations from a re-analysis of the deposited data

Results flagged for a closer look

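In groups of 4 libraries, 1 value can stand far from the other 3, measured as its gap to the nearest of them divided by the range of the group. This was above Dixon's 95% critical value in 29 of 412 groups of named genes (7.04%), where chance gives about 1 in 20. By library, AL replicates 1 to 4 had 2, 3, 6 and 6 of these values and DR replicates 1 to 4 had 3, 1, 3 and 5.

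Among genes of reproduction and the embryo, AL replicate 2 stood apart for *vit-6* (0.907), AL replicate 4 for *cpg-2* (0.846), *sdz-25* (0.925) and *orc-1* (0.924), AL replicate 3 for *elt-1* (0.857) and AL replicate 1 for *fbxa-163* (0.915). DR replicate 4 did so for *fbxb-75* (0.898), *fbxc-51* (0.926) and *fbxa-69* (0.858), and DR replicate 1 for *skr-1* (0.953). Among metabolic genes it was AL replicate 4 for *cth-2* (0.838), *fah-1* (0.906) and *gln-6* (0.84), AL replicate 1 for *lips-15* (0.947), AL replicate 2 for *aqp-10* (0.898), DR replicate 3 for *cts-1* (0.96), DR replicate 1 for *pmp-4* (0.876) and DR replicate 4 for *acs-1* (0.847). Among the remaining genes it was AL replicate 3 for *asp-6* (0.834), *col-95* (0.842), *col-101* (0.915), *daf-36* (0.858) and *ilys-5* (0.865), for which DR replicate 1 also stood apart (0.923). The same held for AL replicate 2 and *clec-5* (0.887), DR replicate 3 and *ugt-26* (0.943) and *T16G1.7* (0.836), DR replicate 2 and *gstk-1* (0.859), and DR replicate 4 and *cyp-36A1* (0.897). In none of these genes did the 4 AL and 4 DR values overlap.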

How the results depend on the processing

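Over 20 alternatives, 179 of the 205 named genes kept their direction and their side of the threshold in all, and none reversed. The other 26 lay close to a log2 change of 1 or -1. Under other scalings *vit-6*, *rme-2*, *hsp-60*, *nlp-40*, *lam-3*, *inx-3*, *acs-1*, *acs-13*, *elo-2*, *ilys-5*, *cyp-25A2* and *nhr-112* lost the call (the lowest were -0.96) and *pck-1* gained it (1.008). A pseudocount of 1 ended it for *unc-49*, *ugt-1*, *cpx-1*, *flp-15*, *jph-1*, *tps-2*, *fbxa-106*, *lam-3*, *cyp-25A2* and *nhr-112*. Calls were also lost without AL replicate 1 (*nduf-5* 0.9975, *cpx-1* 0.9588, *fbxa-106* 0.9672), 2 (*qars-1* 0.9854, *unc-49* 0.9861, *nduf-5* 0.9942, *tps-2* 0.9863, *flp-15* 0.9469, *jph-1* 0.9865), 3 (*unc-49* 0.9955, *col-19* 0.9852, *ugt-1* 0.892, *tps-2* 0.9824, *jph-1* 0.9923) and 4 (*mrpl-46* 0.9852, *fat-3* 0.9813, *fbxa-106* 0.9797). The same held without DR replicate 1 (*qars-1* 0.9979, *unc-49* 0.9329), 2 (*ugt-1* 0.9964, *jph-1* 0.9636, *fbxa-106* 0.9875, *nhr-112* -0.9901), 3 (*lam-3* -0.9917, *tps-2* 0.9687, *cyp-25A2* -0.9942) and 4 (*lam-3* -0.9878, *nduf-5* 0.9763, *acs-1* -0.9905, *spp-14* 0.9969).

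Counts followed the filter on low values. With a mean of at least 1 CPM, 662 genes rose and 1118 fell, and the difference between pools gave 514 upward and 305 downward. With no filter it was 720 and 1177, with 577 and 431 for the pools and 4715 genes higher without a minimum fold. CPM without the composition factor gave 195 upward and 279 downward for the pools. Leaving out 1 library gave 297 to 310 genes higher and 644 to 653 lower. A fit on the 8 total libraries alone, filtered on their own mean, gave 281 higher and 583 lower of 7934 tested. The rRNA difference ranged from -2.838 to -1.318 percentage points when a library was left out, the latter without AL replicate 3, and without a DR library the exact p rose to between 0.0857 and 0.114. The composition of the libraries moved the median of all genes by less than 0.1, from -0.06 to 0.003 at most. With replicate numbers as a block 303 genes rose and 648 fell, and it changed no call. The numbers did not pair the AL with the DR total libraries (correlations of same-numbered libraries of -0.046 to 0.0756). Total and translated libraries were not compared in this way. Of 2040 list medians recomputed, 1613 moved by less than the spread between replicates and 427 by more, and 50 (of 23 lists) changed sign, 20 of them under a lower or no filter and 22 under another scaling. In 36 of these both values were within 0.1 of 0. The exceptions included the C-type lectins (from -0.918 to 0.003 with no filter) and the homeobox genes (from -0.151 to 0.195 at 1 CPM).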
